A study of Mus musculus with 18 samples.

Results

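Bone marrow-derived macrophages (BMDMs) of the 3′F mutant were compared after LPS and at rest, in 3 libraries of each state, which are 6 of the 18 RNA-seq libraries of the series and were chosen by their labelled genotype and treatment alone. The 3′F allele keeps the seed of miR-146a and exchanges the 3′ part of its pre-miRNA duplex. The other 12 libraries come from WT BMDMs and from KO BMDMs that lack miR-146a, with 3 resting and 3 LPS libraries each, and are used here for comparison. All mice were of a mixed 129/B6 background, from founders backcrossed 3 times to C57BL6/J, with 3 mice per genotype. The study's culture methods give their age as 6 to 7 months. Its mass spectrometry methods give a younger age, although it reports that each replicate was divided between sequencing and mass spectrometry. Marrow from femurs and tibias was cultured for 8 to 9 days with M-CSF at 10 ng/ml, with a change of medium on day 3. LPS-treated cells then received fresh medium with LPS at 1 ng/ml and resting cells fresh medium without it, and both were harvested after 16 h. Counts were deposited for 21734 protein-coding genes, of which 11357 had enough counts to test. The libraries are whole cultures, so fewer cells of a type and less RNA per cell cannot be told apart. MiR-146a is not a protein-coding gene and the counts hold no row for it, so the mutation itself was not checked here.

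LPS is a component of the outer membrane of Gram-negative bacteria that macrophages sense through TLR4. TLR4 signals through MyD88, IRAK kinases and TRAF6 to NF-kB, and through TRIF to IRF3 and the type I interferons, which act back on the macrophage through their receptor. MiR-146a is itself induced by NF-kB and represses Irak1 and Traf6, so that it limits the same pathway. MiRNAs find their targets mainly through the seed, while pairing of the 3′ part is thought to add to repression at some sites.

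The sequences below show what the mutation leaves and what it exchanges. The mature miR-146a-5p of mouse, from RefSeq on GRCm38.p6 at chr11:43374435-43374456 on the minus strand, has its seed, bases 2 to 8, in capitals. The WT and 3′F strands are the 20-base strands of the study's synthetic mimics, with the bases that differ between them in capitals.
miR-146a-5p: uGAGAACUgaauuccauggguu
WT strand: ugagaacugaauUCCAUGGG
3′F strand: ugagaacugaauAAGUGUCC
The strands share their first 12 bases, seed included, and differ at 8 positions, which are, counted from 1 at the 5′ end with the WT base first, U13A, C14A, C15G, A16U, U17G, G18U, G19C and G20C.

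Each value below is in counts per 1000000 counts (CPM) scaled by the TMM factors of edgeR, listed for resting replicates 1 to 3 and then for LPS replicates 1 to 3. Each log2 fold change is LPS over resting with its standard error after ±, and each adjusted p is Benjamini-Hochberg adjusted over all genes tested with edgeR's quasi-likelihood test. A gene was called where the adjusted p was below 0.05. No source used here says that a replicate number of these libraries marks a mouse, so the test takes resting and LPS libraries as unpaired, although both states of a genotype come from 3 mice in all.

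The resting library of replicate 3 stood apart from the other 3′F libraries. Its total was 4071084 counts, against 7995881 to 19818043 in the other 17 libraries. Of 9352 genes that were near silent in the other 17 libraries, with a mean below 0.1 CPM there, 4337 had a count in that library and 804 to 2037 in each of the others. The set was chosen without that library, which by itself favours a higher number in it. These genes took 0.36% of its counts and 0.00875% to 0.0219% elsewhere. Its log2 CPM correlated with those of resting replicates 1 and 2 at r of 0.955 and 0.957 across genes, while those 2 libraries correlated at 0.994. The cause of the scattered counts was not tested, and results are given below with and without this library. Another resting library, KO replicate 3, went against its label for the interferon genes listed below. Their summed level was 34500 CPM there, against 4590 and 3660 CPM in KO resting replicates 1 and 2 and 32800 to 42400 CPM in the KO LPS libraries. It bears on every comparison with KO, and the counts of calls, the correlation and the list values are also given without it.

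**Figure D1:**
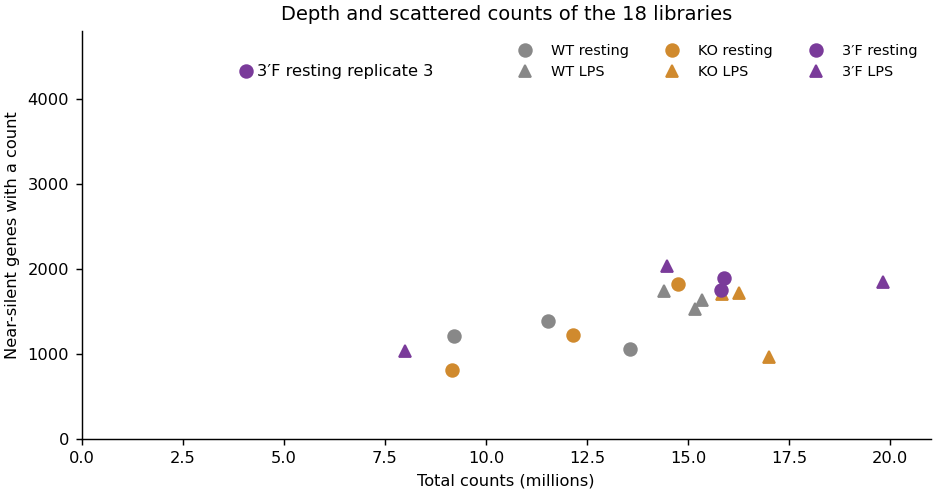
Total counts per library, in units of 1000000 (x axis) against the number of near-silent genes, of 9352, with at least 1 count (y axis) for the 18 libraries, by genotype and state. The 3′F resting library of replicate 3 lies alone at 4337 genes and the lowest total, while the other 17 libraries hold 804 to 2037 such genes. Near-silent genes were chosen by those 17 libraries alone.

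Defining genes of macrophages were present throughout, and those of other cells were lower. All 12 macrophage markers passed the filter on low counts, with a summed level, most of it from the lysozyme gene Lyz2, of 43700 to 63600 CPM at rest and 51600 to 61700 CPM with LPS. Adgre1, which encodes F4/80, stood at 1590, 1800 and 2000 CPM at rest and at 3230, 3720 and 3610 CPM with LPS (0.97 ± 0.18, adjusted p = 0.000844). The 8 B cell markers summed to 0.395 to 3.28 CPM at rest and 0.513 to 1.03 CPM with LPS, with Cd79a at 0 in all 6 libraries. The 11 T and NK cell markers summed to 7.34 to 12.3 CPM at rest and 4.1 to 6.41 CPM with LPS, with Cd3e and Gzma at 0. The 13 neutrophil markers summed to 46.9, 70.6 and 96.7 CPM at rest and to 43.7, 55.3 and 51.2 CPM with LPS. Erythroid and megakaryocyte markers summed to 348 to 525 CPM at rest and 376 to 421 CPM with LPS, nearly all of it from the platelet chemokine gene Pf4, with Gata1, Alas2 and Gp9 at 0. Stromal, endothelial and osteoclast markers summed to 239 to 313 CPM at rest and 216 to 289 CPM with LPS, most of it from the cathepsin gene Ctsk, and 2 of the 8 tested were higher with LPS, Acp5 and Dcn. The highest sums of B cell, neutrophil, erythroid and stromal markers at rest were in resting replicate 3. So were those of macrophage markers and of dendritic cell and mast cell markers. The part of these sums in the results was not tested.

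LPS changed many genes in both directions in 3′F BMDMs. With all 6 libraries, 1951 genes rose (17.2%) and 1595 fell (14%), which is 3546 of the 11357 tested (31.2%). More than a 2-fold change was seen for 812 of the higher and 608 of the lower genes, and more than an 8-fold change for 196 and 34. Every LPS library lay above every resting library for 2847 genes (25.1%) and below for 2287 (20.1%). Without resting replicate 3, 3160 of 11433 genes were called, 1660 higher (14.5%) and 1500 lower (13.1%). The calls with and without it shared 2727 genes, 76.9% of the first set and 86.3% of the second, with 0 in opposite directions. Without LPS replicate 2, 982 genes were lower.

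**Figure D2:**
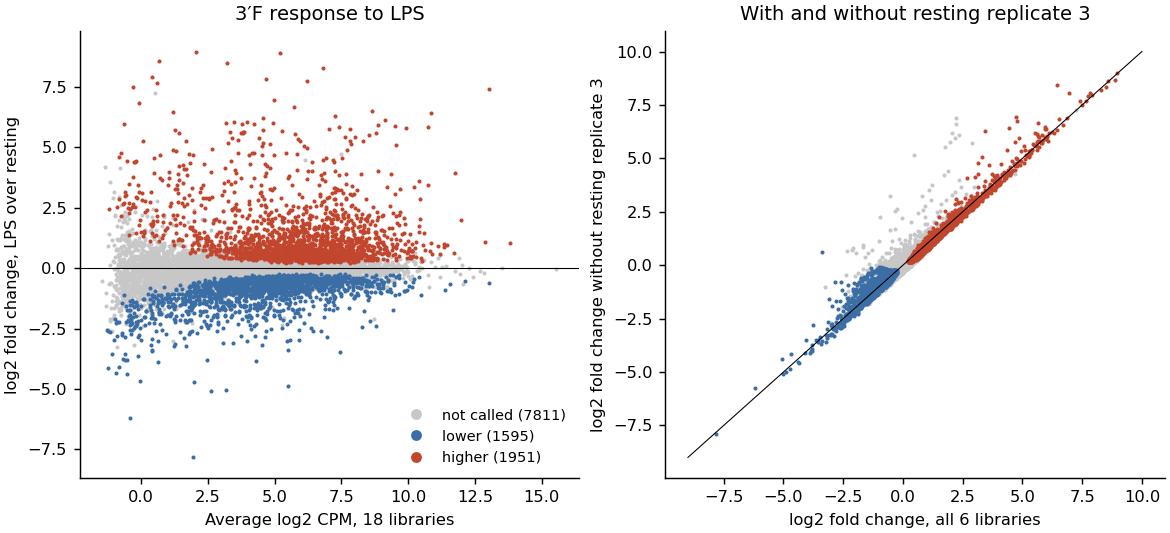
Left, log2 fold change of LPS over resting in 3′F BMDMs (y axis) against the average log2 CPM of 18 libraries (x axis) for each gene tested, with called genes coloured. Right, the log2 fold change without resting replicate 3 (y axis) against that with all 6 libraries (x axis), where 108 genes lie more than 1 log2 unit above the line of equality and 0 lie that far below it.

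The largest rises among genes of at least moderate level were in secreted defence proteins, a chemokine and enzymes. Saa3, an acute-phase serum amyloid (chr7:46711998-46715700), stood at 62.5, 44 and 96.9 CPM at rest and at 11000, 12300 and 10800 CPM with LPS (7.40 ± 0.92, adjusted p = 2.09e-05). Its LPS libraries lay far above its resting libraries and close to each other. Ccl5, a chemokine that draws T cells (chr11:83525778-83530518), went from 0.734, 0.695 and 0.468 CPM to 237, 187 and 227 CPM (8.29 ± 1.07, adjusted p = 3.14e-05). Lcn2 encodes lipocalin 2, which binds bacterial siderophores and so withholds iron (chr2:32384633-32388252). It was at 0.0564, 0.29 and 0.468 CPM at rest and at 47.8, 37.7 and 61.7 CPM with LPS (7.83 ± 0.75, adjusted p = 1.54e-06). Rasgrp1, an activator of Ras, rose from 0.0564, 0.174 and 1.4 CPM to 29.7, 36.6 and 35.8 CPM, and its log2 fold change of 6.94 ± 0.77 was 8.07 without resting replicate 3, the highest of its resting libraries.

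Several of the genes with the largest rise were nearly silent at rest, so the size of their rise rests on very few counts. Cd38, an enzyme that consumes NAD (chr5:43868553-43912375), had 4 counts over the 3 resting libraries and 2130 over the LPS libraries, a 525-fold ratio after scaling with an exact 95% counting interval of 205 to 1930. Its CPM values were 0.0564, 0.174 and 0 at rest and 55.5, 55.9 and 45 with LPS. Cfb, complement factor B (chr17:34856374-34862518), had 1 and 494 counts, with 0.0564, 0 and 0 CPM against 15.4, 10.8 and 11.2 CPM. Wfdc21 (chr11:83746940-83752642) had no count in any resting library and stood at 3.66, 4.98 and 5.39 CPM with LPS, at least 13.4-fold higher against the floor of 3 counts per library. All of these passed the test with and without resting replicate 3.

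The largest falls were in receptors, signalling regulators and a prostaglandin-degrading enzyme. Hpgd, which inactivates prostaglandins (chr8:56294585-56321043), stood at 3.95, 10.7 and 24.3 CPM at rest and at 0.147, 0.493 and 0.385 CPM with LPS (-5.07 ± 0.81, adjusted p = 0.000225). Its resting libraries were spread widely and all lay above its LPS libraries. Gpr34, a receptor for lysophosphatidylserine (chrX:13632089-13640858), went from 13.4, 19.5 and 15.2 CPM to 0.513, 0.383 and 0.641 CPM (-5.03 ± 0.74, adjusted p = 0.000104). Nptx1, a pentraxin best known from neurons (chr11:119538719-119547753), fell from 113, 99.5 and 89.4 CPM to 4.69, 1.92 and 3.85 CPM (-4.89 ± 0.45, adjusted p = 1.06e-06). Rgs1, which shortens signalling from G protein-coupled receptors, was at 386, 409 and 517 CPM at rest and at 57.4, 34.5 and 26.8 CPM with LPS (-3.46 ± 0.29, adjusted p = 4.39e-07). Cd28 (-3.86 ± 0.39), the transcription factor gene Sox4 (-3.82 ± 0.38), the sialyltransferase gene St6gal1 (-3.39 ± 0.29) and Reps2 (-3.16 ± 0.48) completed the 8 genes with the largest fall at an average log2 CPM of 2 or more.

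**Figure D3:**
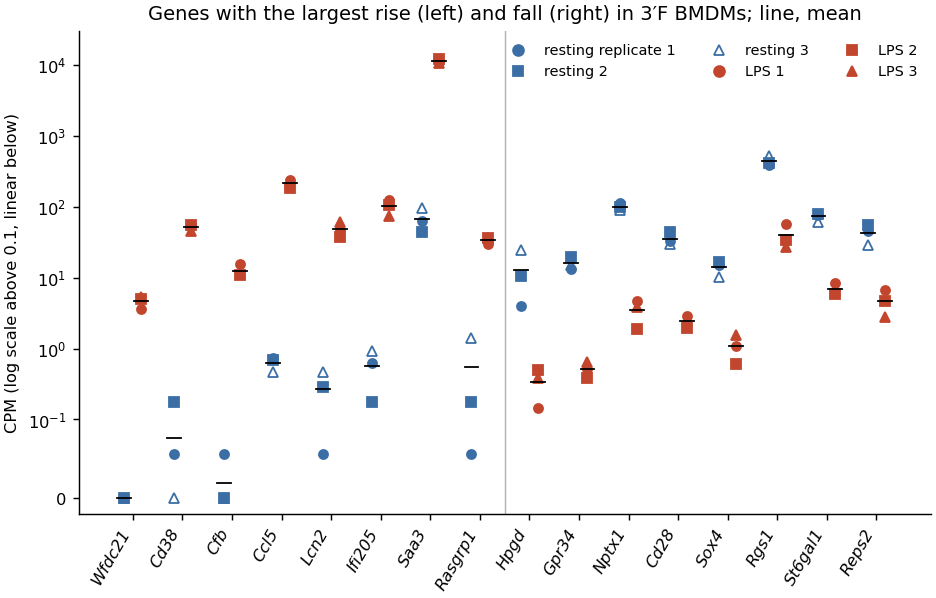
CPM in each 3′F library (y axis, logarithmic above 0.1 and linear below) for the 8 genes with the largest rise and the 8 with the largest fall, resting and LPS libraries side by side with the mean as a line. The resting and LPS points of each gene do not overlap, as for Saa3 at 44 to 96.9 CPM at rest and 10800 to 12300 CPM with LPS.

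Inflammatory cytokine genes rose in part. Of 23 tested, 11 were higher and 2 lower (47.8% and 8.7%, against 17.2% and 14% of all genes), with a median log2 fold change of 1.46, against -0.01 over all genes. Without LPS replicate 1 the median was 0.94. Il1b, the gene of the fever-inducing cytokine IL-1β (chr2:129364570-129371139), was at 4.85, 5.16 and 28.1 CPM at rest and at 187, 108 and 102 CPM with LPS. Resting replicate 3 held more than 5 times the level of the other resting libraries, and the log2 fold change was 3.60 ± 0.75 with it (adjusted p = 0.00179) and 4.68 without it (adjusted p = 0.000374). Tnf (chr17:35199381-35202007), at 66.3, 68.5 and 64.4 CPM at rest, was at 233, 178 and 138 CPM with LPS (1.46 ± 0.21, adjusted p = 8.57e-05). Il12b, a subunit of IL-12, had 4 counts over the resting libraries and 178 over the LPS libraries, which lay at 4.76, 1.86 and 10.1 CPM. Tnfsf10, the gene of the death ligand TRAIL, rose by 5.96 ± 1.40 and Il1a by 5.61 ± 0.55. Osm (-1.55 ± 0.28) and Vegfa (-1.42 ± 0.27) fell.

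Il6 did not pass the test after 16 h of LPS. Its values were 0.226, 0 and 0.234 CPM at rest and 0.513, 0.0548 and 0.385 CPM with LPS (1.11 ± 1.05, adjusted p = 0.446). Both states held few counts, 4, 0 and 1 at rest and 7, 1 and 3 with LPS, and overlapped. The interferon gene Ifnb1 had 1, 0 and 2 counts at rest and 10, 1 and 3 with LPS (adjusted p = 0.247). In KO, Il6 had 0, 0 and 1 counts at rest and 47, 13 and 27 with LPS (5.83 ± 1.03, adjusted p = 0.000533, and 7.81 without KO resting replicate 3). The difference between 3′F and KO was -4.72 and was not called (adjusted p = 0.443, and 0.397 without that library).

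Chemokine genes were called higher for 11 and lower for 1 of 21 (52.4% and 4.76%), with a median log2 fold change of 1.16. The interferon-inducible Cxcl10 (chr5:92346638-92348889), a ligand of CXCR3, rose from 3.95, 2.38 and 2.11 CPM to 182, 186 and 142 CPM (5.84 ± 1.02, adjusted p = 0.000515). Cxcl11, another CXCR3 ligand, had no count at rest and 13, 70 and 3 counts with LPS, at least 4.95-fold higher. Cxcl14 was the member that fell (-1.32 ± 0.32). Ccl2, which draws monocytes, was at 89, 77.3 and 103 CPM at rest and at 102, 69.8 and 82 CPM with LPS (-0.08 ± 0.44, adjusted p = 0.906), with overlapping states.

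Among 15 chemoattractant receptor genes, 5 rose and 2 fell (33.3% and 13.3%, against 17.2% and 14% of all genes). The share that fell was near that of all genes, and 3 were higher without LPS replicate 1. The formyl peptide receptors, which sense bacterial peptides, rose most. Fpr2 (chr17:17887824-17893952) went from 2.6, 3.01 and 2.11 CPM to 213, 229 and 196 CPM (6.31 ± 0.62, adjusted p = 2.03e-06). Fpr1 was at 2.03, 1.74 and 2.34 CPM at rest and at 76.4, 75.9 and 90.6 CPM with LPS (5.36 ± 0.64). Cxcr4, the receptor that holds cells in the marrow and a reported miR-146a target (chr1:128588199-128592293), fell from 204, 240 and 189 CPM to 30.4, 31.9 and 26.6 CPM (-2.83 ± 0.27, adjusted p = 1.64e-06).

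Genes of the TLR4 pathway and of NF-kB were called higher for 17 and lower for 1 of 38 (44.7% and 2.63%), with a smaller median of 0.40. Tlr4 itself was at 215, 250 and 257 CPM at rest and at 181, 236 and 197 CPM with LPS (-0.23 ± 0.12, adjusted p = 0.161), with overlap. The adaptor gene Myd88 rose from 53.9, 50.6 and 33.2 CPM to 148, 172 and 128 CPM (1.69 ± 0.23, adjusted p = 5.42e-05). Tlr1 (1.99 ± 0.23) and the kinase gene Ikbke (1.8 ± 0.17) rose as well. Tlr5, the receptor for flagellin, was the member called lower, from 0.903, 0.869 and 1.17 CPM to 0.147, 0.11 and 0.257 CPM, and lost its call without LPS replicate 1 or 2. Resting replicate 3 was the lowest resting library for 27 of the 38 genes (71.1%, against 45.6% of all genes), and the members called lower were 3 without it, Tlr7 (-0.50, adjusted p = 0.0467) and Tlr13 (-0.50, adjusted p = 0.00712) among them.

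Genes that restrain the pathway were higher for 15 and lower for 3 of 32 (46.9% and 9.38%), with a median of 0.38, and higher for 13 and lower for 7 without resting replicate 3. Irak3, an inhibitory member of the IRAK family (chr10:120141648-120202130), went from 32.2, 31.2 and 15.9 CPM to 223, 232 and 241 CPM (3.10 ± 0.20, adjusted p = 3.44e-08). Socs3, which blocks cytokine receptor signalling, rose from 16.2, 13.7 and 9.13 CPM to 204, 184 and 132 CPM (3.69 ± 0.35, adjusted p = 1.39e-06), and Socs1 rose by 3.51 ± 0.62. Nfkbia, which encodes IκBα, was at 185, 195 and 221 CPM at rest and at 495, 402 and 370 CPM with LPS (1.08 ± 0.19, adjusted p = 0.00055). Tnfaip3, the gene of the ubiquitin-editing enzyme A20, was called with all libraries (0.81 ± 0.22, adjusted p = 0.0108), and had an adjusted p of 0.057 without resting replicate 3. The phosphatase genes Dusp5 (-1.95 ± 0.46) and Dusp1 (-0.87 ± 0.26) fell, and Dusp1 lost its call without resting replicate 1 or LPS replicate 2 or 3 (adjusted p = 0.0522 to 0.0669).

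Reported targets of miR-146a included 6 that rose and 1 that fell of 13 tested (46.2% and 7.69%, against 17.2% and 14% of all genes). Those that rose include genes that interferon or NF-kB induce. Irak1 (chrX:74013914-74023918) was at 64.2, 62.5 and 43.8 CPM at rest and at 59.6, 65.1 and 53.6 CPM with LPS (0.06 ± 0.18, adjusted p = 0.843), and at -0.13 without resting replicate 3. Traf6 (chr2:101678429-101701669) was at 49.9, 49.6 and 32.8 CPM at rest and at 62.7, 61.8 and 52.3 CPM with LPS (0.41 ± 0.16, adjusted p = 0.0631). Its lowest resting value was that of replicate 3, without which the log2 fold change was 0.21 (adjusted p = 0.304). Irak2 (0.99 ± 0.20), Relb (1.43 ± 0.22), the death receptor gene Fas (2.21 ± 0.14), Notch1 (0.62 ± 0.16) and Irf5 (0.56 ± 0.18) were among the 6 that rose. Irf5 had an adjusted p of 0.115 without resting replicate 3, which was the lowest resting library for 10 of the 13 genes (76.9%, against 45.6% of all genes).

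The interferon response was the gene list with the highest share of called members. Of 59 genes, 57 were higher and 0 lower (96.6%), with a median log2 fold change of 4.08, and the count was 57 without resting replicate 3 and 54 to 58 when any single 3′F library was left out. Their summed level was 2220, 1800 and 1810 CPM at rest and 24800, 25900 and 19200 CPM with LPS. Ifit1, which binds viral RNA lacking a methylated cap (chr19:34640871-34650009), rose from 12.1, 8.87 and 13.3 CPM to 775, 936 and 650 CPM (6.13 ± 1.10, adjusted p = 0.000589). Gbp2, a GTPase that attacks vacuoles of intracellular microbes (chr3:142620602-142638008), was at 18.7, 15.9 and 18.7 CPM at rest and at 1210, 1050 and 856 CPM with LPS (5.88 ± 1.02, adjusted p = 0.000446). Rsad2, the gene of the antiviral enzyme viperin (chr12:26442746-26456452), went from 25.4, 18.1 and 23.4 CPM to 1340, 1490 and 892 CPM (5.80 ± 1.12, adjusted p = 0.00105). For each of these, the lowest LPS value was that of replicate 3 and still lay far above every resting value.

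Other members included sensors, transcription factors and an ubiquitin-like modifier. Ifi205 (chr1:174011998-174031810), of a family of DNA-binding proteins, rose from 0.621, 0.174 and 0.936 CPM to 123, 107 and 73.4 CPM (7.73 ± 1.40, adjusted p = 0.000647). Zbp1, a sensor of Z-form nucleic acid, rose by 6.68 ± 1.21 and the antiviral GTPase gene Mx1 by 6.52 ± 1.38. Isg15, a ubiquitin-like modifier, went from 6.38, 4 and 9.6 CPM to 308, 277 and 218 CPM. Genes of factors that carry the interferon signal rose too. Stat2 was at 29.3, 26.7 and 20.6 CPM at rest and at 298, 324 and 256 CPM with LPS (3.50 ± 0.56), and Irf7 (5.27 ± 0.96) and Irf9 (1.35 ± 0.20) were called as well. The 2 genes not called were Irf8 (adjusted p = 0.565) and Ifi44 (adjusted p = 0.0561). Ifi44 was at 16.5, 7.88 and 0.468 CPM at rest and at 366, 346 and 16.8 CPM with LPS, so that replicate 3 was lowest in both states. Ifi205, the Ifit and the Gbp genes belong to families of near-identical copies, among which read counts can be split or shared, so their single values are uncertain.

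Promoters of interferon-inducible genes commonly hold the interferon-stimulated response element (ISRE), a site that interferon-activated factors such as IRF9 use. RefSeq promoters of GRCm38.p6, 250 bases before to 50 after each gene's start, were available for 1586 of the 1951 higher genes (81.3%) and searched on both strands for TTTC followed, after any 2 bases, by TTTC. It was in 123 of them (7.76%), against 4.04% of the genes tested that had a promoter and 3.99% of all 27025 genes in the table. An NF-kB motif, whose overlap with the ISRE was not checked, was in 15% of the higher genes, 12.3% of the genes tested and 9.55% of all. Among the genes described above, Stat2 also held the element before its start. For Zbp1, Mx1, Irf7 and Irf9 no match before the start was found, or no promoter was available. The windows below show the element, in capitals, in some of the other genes described above. They are written along the plus strand, where the reverse complement appears as GAAA, any 2 bases and GAAA.
Ifit1 (chr19:34640795-34640822): cagtctcagTTTCAGTTTCtcactgctg
Gbp2 (chr3:142620595-142620622): ctcttttagTTTCACTTTCactgtctta
Rsad2 (chr12:26456554-26456581): tggtccaacTTTCATTTTCagaaaacag
Cxcl10 (chr5:92349084-92349111): cacgctttgGAAAGTGAAActtacctca
Isg15 (chr4:156200866-156200893): aaggaaaccGAAACAGAAAatagctctg
Ifi205 (chr1:174031871-174031898): caggccaggGAAATTGAAAgctatgaac
The elements lay 50 bases (Gbp2) to 204 bases (Cxcl10) before the RefSeq start of the gene, which can differ from the gene coordinates given above. A match describes the sequence and does not show binding.

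Genes of antigen presentation on class I molecules were higher for 18 and lower for 0 of 20 (90%), with a median of 1.68. Without resting replicate 3, 16 were higher, and leaving out any single 3′F library left 14 to 16. Tap1, a subunit of the peptide transporter (chr17:34187553-34197225), rose from 39.8, 31.3 and 42.1 CPM to 355, 332 and 246 CPM (3.05 ± 0.59, adjusted p = 0.00112). Psmb9, of the immunoproteasome, rose by 2.22 ± 0.57. B2m, the light chain of class I, was at 592, 525 and 356 CPM at rest and at 1400, 1300 and 1270 CPM with LPS (1.43 ± 0.27, adjusted p = 0.000811). H2-Q7 was called as well (2.66 ± 0.83), but shares much of its sequence with other class I genes and lost its call without resting replicate 1 or 2 or LPS replicate 1 (adjusted p = 0.0666 to 0.0919). Promoters were available for 17 of the 20 genes, and the NF-kB motif was in 7 of them (41.2%) and the ISRE in 4 (23.5%).

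Genes of class II presentation and costimulation were higher for 9 and lower for 2 of 19 (47.4% and 10.5%), and lower for 1 without any single 3′F library other than LPS replicate 3. Cd69 (4.67 ± 0.88), the inhibitory ligand gene Cd274, which encodes PD-L1 (3.04 ± 0.53), and Cd40 (2.49 ± 0.48) rose. Cd274 was at 48.8, 53 and 30.7 CPM at rest and at 396, 440 and 268 CPM with LPS. Cd83 fell from 72.9, 101 and 80.5 CPM to 27.3, 13.3 and 10 CPM (-2.32 ± 0.55, adjusted p = 0.00462).

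Enzymes of arginine, nitric oxide, itaconate and prostaglandin metabolism were higher for 17 and lower for 3 of 26 (65.4% and 11.5%), with a median of 1.65. Without resting replicate 2, LPS replicate 2 or LPS replicate 3, 1 was lower. Acod1, which makes itaconate (chr14:103046977-103056573), rose from 47.9, 28.1 and 32.1 CPM to 3500, 2930 and 2940 CPM (6.43 ± 0.69, adjusted p = 4.73e-06). Nos2, the inducible nitric oxide synthase (chr11:78920787-78960254), was at 0.113, 0.0579 and 0.936 CPM at rest and at 16.1, 5.53 and 7.44 CPM with LPS (5.64 ± 1.47, adjusted p = 0.00847). Ptges, which makes prostaglandin E2, went from 12, 9.1 and 10.5 CPM to 488, 464 and 396 CPM (5.41 ± 0.29, adjusted p = 6.41e-09). The cationic amino acid transporter gene Slc7a2 (3.86 ± 0.37), the citrulline-recycling Ass1 (4.67 ± 0.86) and Arg1, which competes for arginine (2.61 ± 0.78), rose as well. Ptgs1 (-1.70 ± 0.24) and Alox5 (-1.32 ± 0.42), enzymes of eicosanoid synthesis, fell, and Alox5 lost its call without resting replicate 2 or LPS replicate 2 or 3 (adjusted p = 0.0676 to 0.0998). Ptgs2, the inducible cyclooxygenase, was at 4.06, 3.13 and 6.32 CPM at rest and at 11.1, 2.74 and 3.98 CPM with LPS (adjusted p = 0.587).

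Glycolysis and hypoxia genes were higher for 18 and lower for 0 of 23 (78.3%), with smaller changes and a median of 0.93. The lactate exporter gene Slc16a3 rose from 145, 131 and 118 CPM to 566, 571 and 498 CPM (2.05 ± 0.28, adjusted p = 6.16e-05). Ldha, which makes lactate, was at 899, 967 and 1280 CPM at rest and at 2010, 2150 and 1990 CPM with LPS (0.96 ± 0.22, adjusted p = 0.00333). Pfkfb3, an activator of glycolysis (1.75 ± 0.18), the mitophagy gene Bnip3 (1.68 ± 0.25) and Hif1a (0.83 ± 0.15) rose. By contrast, 3 of 33 oxidative phosphorylation genes were higher and 1 lower (9.09% and 3.03%, against 17.2% and 14% of all genes), with a median of -0.07. The higher genes were 1 without resting replicate 2, LPS replicate 1 or LPS replicate 3, and the lower genes were 4 without resting replicate 1, 2 without resting replicate 2 and 0 without any of the LPS libraries. Resting replicate 3 was the highest resting library for 28 of those 33 genes (84.8%, against 45.1% of all genes), and without it 2 were higher and 0 lower, with a median of 0.11.

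Iron and heme genes rose more often than they fell. Of 23 iron and heme genes, 12 rose and 2 fell (52.2% and 8.7%). Ceruloplasmin, the copper oxidase encoded by Cp, rose from 1.64, 1.1 and 2.11 CPM to 56.2, 62.3 and 54.6 CPM (5.28 ± 0.45, adjusted p = 5.46e-07). Heme oxygenase 1, encoded by Hmox1, was at 305, 341 and 230 CPM at rest and at 1260, 1310 and 1400 CPM with LPS (2.18 ± 0.20, adjusted p = 8.82e-07). Slc40a1, the iron exporter ferroportin, fell from 24, 26.5 and 12.2 CPM to 2.64, 3.56 and 2.82 CPM (-2.82 ± 0.54, adjusted p = 0.000956), and the ferritin heavy chain gene Fth1 rose (1.10 ± 0.18). Sod2, the mitochondrial superoxide dismutase, went from 200, 177 and 199 CPM to 2360, 2370 and 2230 CPM (3.60 ± 0.21, adjusted p = 1.14e-08), and Cybb, of the NADPH oxidase, rose by 2.01 ± 0.19.

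Scavenger, efferocytosis and tissue macrophage genes moved in both directions, 13 higher and 11 lower of 42 (31% and 26.2%, median -0.11). Marco, a scavenger receptor for bacteria (chr1:120474538-120505024), rose from 20.3, 27.7 and 43.1 CPM to 612, 1290 and 1180 CPM (5.11 ± 0.58, adjusted p = 8.69e-06). Slco2b1, a transporter of organic anions, fell from 4.01, 6.43 and 3.75 CPM to 0.366, 0.11 and 0 CPM (-4.72 ± 0.64, adjusted p = 4.79e-05). Trem2, a lipid receptor, was at 749, 801 and 1120 CPM at rest and at 471, 523 and 397 CPM with LPS (-0.94 ± 0.17). Among 17 cholesterol efflux and fatty acid genes, 4 rose and 4 fell (23.5% each, against 17.2% and 14% of all genes). Among them were the exporter gene Abca1 (1.77 ± 0.26), the liver X receptor gene Nr1h3 (1.23 ± 0.35) and the fatty acid carrier gene Fabp5 (-0.95 ± 0.25). Nr1h3 lost its call without resting replicate 1 or 2 (adjusted p = 0.0581 and 0.0551). Cholesterol synthesis genes were called for 3 higher and 1 lower of 21 (14.3% and 4.76%), with the higher share near the 17.2% of all genes. The 1 lower gene, Msmo1, lost its call without any single 3′F library other than resting replicate 3.

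Proteases, matrix genes and alarmins were higher for 11 and lower for 5 of 28 (39.3% and 17.9%). The lower genes were 2 without resting replicate 2 and 3 without resting replicate 1, LPS replicate 2 or LPS replicate 3. Mmp14, a membrane-bound matrix protease, rose from 12.4, 11.9 and 8.19 CPM to 376, 421 and 366 CPM (5.12 ± 0.39, adjusted p = 1.35e-07), and its inhibitor gene Timp1 by 5.06 ± 0.60. Hp, which encodes the hemoglobin-binding haptoglobin, rose by 5.94 ± 0.77, while Plau, which encodes urokinase, fell from 1060, 1080 and 771 CPM to 204, 181 and 172 CPM (-2.39 ± 0.23, adjusted p = 1.72e-06). Inflammasome and cell death genes were higher for 14 and lower for 2 of 28 (50% and 7.14%), with the necroptosis effector gene Mlkl (2.41 ± 0.59) among the higher and Bcl2l1 (-0.79 ± 0.13) and Bcl2 (-0.74 ± 0.18), which protect from apoptosis, the lower. Of 31 lysosomal hydrolase genes, 4 rose and 6 fell (12.9% and 19.4%, near the shares of all genes), with the largest rise in the cysteine protease gene Ctsc (2.32 ± 0.23). The lower genes were 2 without resting replicate 2 and 3 without LPS replicate 1 or 3.

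DNA replication genes fell. Of 35, 27 were lower and 0 higher (77.1%), with a median of -0.87, and 24 were lower without resting replicate 3 (median -0.79). The count was 16 without LPS replicate 2 and up to 26 without any other single 3′F library. Mcm6, a subunit of the replicative helicase (chr1:128331590-128359664), fell from 185, 183 and 190 CPM to 80.4, 84.8 and 105 CPM (-1.05 ± 0.12, adjusted p = 6.44e-06). Ccne2, the gene of a cyclin that opens S phase, was at 24.4, 31.6 and 45.9 CPM at rest and at 5.28, 6.96 and 10.5 CPM with LPS (-2.17 ± 0.28, adjusted p = 3.23e-05). Pola1, of the primase complex, went from 40.2, 44.2 and 70.5 CPM to 16.2, 13.6 and 19.4 CPM (-1.65 ± 0.19), and Rrm2, which makes deoxynucleotides, fell by 1.93 ± 0.32 on the log2 scale.

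Mitosis genes were lower for 7 and higher for 0 of 34 (20.6%, against 14% of all genes), and for 2 without resting replicate 3, with medians of -0.71 and -0.40. It was 1 without LPS replicate 2, 3 without LPS replicate 1, 13 without LPS replicate 3 and 15 without resting replicate 2, so the number of mitosis calls rests on single libraries. Resting replicate 3 was the highest resting library for 29 of the 34 (85.3%) and for 26 of the 35 replication genes (74.3%). The summed mitosis level was 1540, 1170 and 2240 CPM at rest and 1120, 638 and 1370 CPM with LPS, and taken as unpaired groups the states overlapped. Cdk1, the kinase of mitotic entry, was at 57.5, 52 and 152 CPM at rest and at 42.4, 23.1 and 41.3 CPM with LPS, and was called with all libraries (-1.27 ± 0.35, adjusted p = 0.0112) and not without resting replicate 3 (-0.67, adjusted p = 0.069). Nuf2, of the kinetochore, was called in both fits (-1.48 ± 0.39, and -0.83 without it) but not without LPS replicate 2 (adjusted p = 0.0522). Mki67, at 228, 173 and 198 CPM at rest and 191, 104 and 218 CPM with LPS, was not called (adjusted p = 0.626).

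Promoters of S phase genes often hold E2F sites, and those of mitotic genes the cell cycle homology region (CHR) beside NF-Y sites. The E2F letters TTNGCGC were in 12 of 29 replication genes with a promoter (41.4%), against 13.1% of the genes tested and 7.24% of all promoters. The CHR letters TTTGAA were in 19 of 28 mitosis genes (67.9%, against 14.8% of the genes tested and 20.2% of all) and the NF-Y letters CCAAT in 20 (71.4%, against 43.7% and 41.1%). Both strands were searched. E2F sites of 2 genes named above and of Orc1, of the origin recognition complex, which fell from 3.05, 2.9 and 4.21 CPM to 0.953, 1.15 and 2.31 CPM, are shown in capitals along the plus strand.
Pola1 (chrX:93632278-93632302): catcacaggGCGCCAAatgcactcc
Mcm6 (chr1:128359733-128359757): acgggtttgGCGCGAAgtagctcag
Orc1 (chr4:108579418-108579442): cggttagtgGCGCGAAaagttttct
These lay 132, 37 and 21 bases before the start of the gene. Orc1 was called with all libraries (adjusted p = 0.046) and not without resting replicate 3 (adjusted p = 0.0871).

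Genes of early response factors, which are induced within minutes of a stimulus, were lower for 10 and higher for 3 of 23 (43.5% and 13%). Fosb (chr7:19302696-19310051) was at 8.92, 7.24 and 7.49 CPM at rest, and its LPS libraries held 1 count in all against 315 at rest, a 319-fold ratio with an exact 95% counting interval of 56.9 to 12700. Fos fell from 235, 217 and 162 CPM to 120, 103 and 101 CPM (-0.92 ± 0.25, adjusted p = 0.0096). Egr1 (-2.49 ± 0.63), Nr4a1 (-2.38 ± 0.49) and Myc (-1.37 ± 0.36) fell as well. Batf (2.56 ± 0.42), Ier3 (0.95 ± 0.21) and Atf4 (0.41 ± 0.10) were the 3 that rose.

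**Figure D4:**
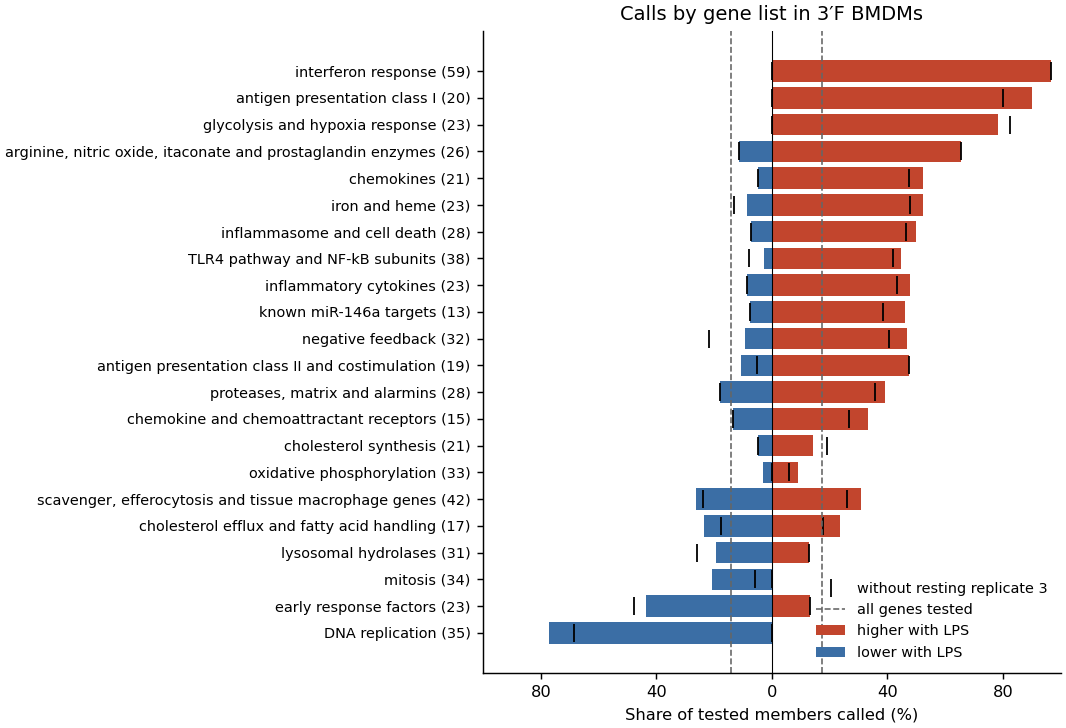
Share of tested members called higher or lower with LPS in 3′F BMDMs (x axis, percent) for each gene list (y axis), with all 6 libraries and without resting replicate 3, beside the shares of all genes. Interferon response reaches 96.6% higher and DNA replication 77.1% lower, while mitosis drops from 20.6% lower to 2 of 34 genes without resting replicate 3.

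The response of 3′F BMDMs was set beside those of WT and KO BMDMs to ask where the exchange of the 3′ part differs from an intact and from an absent miRNA. The log2 fold changes of 3′F and WT correlated at r = 0.91 (rank correlation 0.81) across 11357 genes, and those of 3′F and KO at r = 0.79 (rank correlation 0.71). Without KO resting replicate 3 the latter were 0.84 and 0.73. These are descriptions across genes, which are not independent replicates. Of the 3546 genes called in 3′F, 3503 (98.8%) had the same sign in WT and 3390 (95.6%) in KO. Without that library, 3857 of 4001 (96.4%) had the same sign in KO. The difference between the 3′F and the WT response was called for 0 of 11357 genes by edgeR, DESeq2 and limma-voom. In edgeR 203 genes had an unadjusted p below 0.05, fewer than the 568 expected by chance. The edgeR number was 106 to 856 with single libraries left out, and limma-voom gave 975. The edgeR numbers thus lay on both sides of 568, depending on the library left out. The cause was not tested, and 0 calls say little about how alike the responses were.

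No gene list held a gene whose response differed between 3′F and WT by the test. The log2 fold change of Acod1 was 6.43 in 3′F and 6.08 in WT, that of Saa3 7.40 and 7.48, that of Tnf 1.46 and 1.66, and that of Irak3 3.10 and 2.69. For Il6 it was 1.11 in 3′F and 2.48 in WT, without a called difference. The interferon list was higher for 57 genes in 3′F and 58 in WT (background in WT 16.3%), with medians of 4.08 and 4.22, and the median of the difference was -0.09. Its summed level was spread widely in the WT LPS libraries, at 23100, 12300 and 40900 CPM. DNA replication genes were lower for 27 in 3′F and 22 in WT (background in WT 12.3%). Mitosis genes were lower for 7 in 3′F and 20 in WT, with medians of -0.71 and -0.95. None of the 34 mitosis genes passed the test of the difference, and a p that misses the threshold does not show that the responses were alike.

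Between 3′F and KO the difference of response was called for 2 of 11357 genes (0.0176%), Clmp and Arhgap22, and 1267 had an unadjusted p below 0.05 (1354 without KO resting replicate 3). Clmp, which encodes a cell adhesion molecule (chr9:40685962-40785319), was at 2.65, 2.43 and 1.64 CPM in resting and 48.9, 44.4 and 43 CPM in LPS libraries of 3′F. In KO it was at 17.7, 11.2 and 10.3 CPM at rest and at 51.9, 58.9 and 46.1 CPM with LPS, and in WT at 2.69, 1.96 and 3.19 CPM at rest and at 37.8, 40.9 and 38 CPM with LPS. The resting KO libraries thus lay above all resting 3′F and WT libraries, and the log2 response was 2.26 larger in 3′F than in KO (adjusted p = 0.00582). Arhgap22, which encodes a GTPase-activating protein (chr14:33214026-33369934), fell from 48, 52.8 and 55.3 CPM to 13.4, 11.5 and 15 CPM in 3′F. In KO it fell from 52.7, 54.3 and 51.8 CPM to 5.85, 5.21 and 6.7 CPM, a difference of 1.18 on the log2 scale (adjusted p = 0.0188). Its KO LPS libraries lay below all LPS libraries of 3′F and WT.

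The interferon list differed most in size between 3′F and KO, but the value rests on 1 KO library. Its median log2 fold change was 1.31 in KO, with 12 genes higher (background 14.3%), and the median difference from 3′F was 2.71, with 0 of 59 genes called (lowest adjusted p = 0.44). Without KO resting replicate 3, whose interferon genes stood at the level of the KO LPS libraries, KO had 57 genes higher (background 20.2%) with a median of 3.22, 3′F had 58 (background 19%) with a median of 4.06, and the median difference was 0.73. In that fit 3 genes differed in response (0.0261%), Clmp (2.39), Arhgap22 (1.20) and Gprc5b (-2.48, adjusted p = 0.024). All genotypes share 1 estimate of the spread. Without that library 4001 of 11493 genes were called in 3′F (34.8%), 2189 higher and 1812 lower. The summed interferon level was 4590 and 3660 CPM in KO resting replicates 1 and 2 and 1800 to 2220 CPM in 3′F resting libraries. With LPS it was 32800 to 42400 CPM in KO and 19200 to 25900 CPM in 3′F. The smaller fold change in KO thus went with higher levels in both states.

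**Figure D5:**
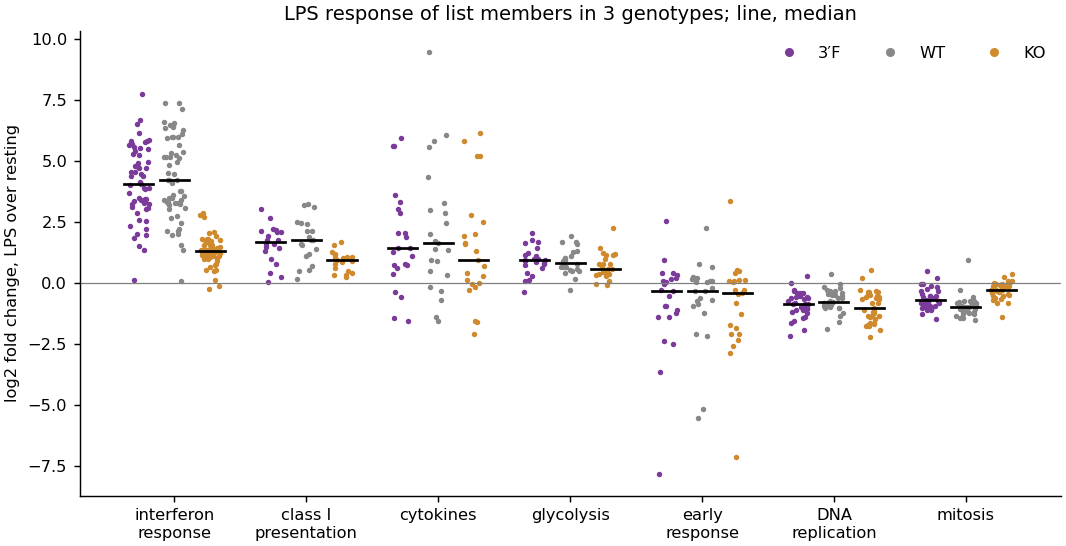
Log2 fold change of LPS over resting (y axis) for each member of the lists named on the x axis, with 3′F, WT and KO side by side and the median as a line. The interferon medians are 4.08 in 3′F, 4.22 in WT and 1.31 in KO, the last of which is 3.22 without KO resting replicate 3.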

How the data were processed

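Total RNA of BMDMs was depleted of rRNA and made into directional libraries. Per the labels and the study's methods, the authors trimmed reads with cutadapt 1.8.3, removed rRNA reads, aligned the rest to mm10 with HISAT2 2.1.0 and counted them per gene with featureCounts 1.5.3 on a Gencode annotation. Alignment and counting were set to reverse-stranded libraries. The deposited values are raw counts of reads per gene, with 18 columns for 18 libraries. Gene coordinates are those of a Gencode annotation of GRCm38, the same build as mm10.

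Groups were taken from the labels. All 18 libraries, in 6 groups, were fitted together with edgeR 4.0.16 (filterByExpr, TMM, quasi-likelihood test, R 4.3.3), and SE is the log2 fold change over the root of F. Differences of response are interaction terms. Scripts were tested on simulated data. The members, lists and named genes were chosen with earlier results of these data known, on top of rules of size: the 8 genes of largest change in each direction whose log2 CPM averaged 2 or more, and up to 3 higher and 2 lower called genes per list whose average was 0 or more. Some genes described within the lists were chosen after their values were seen. Totals were 4071084 to 19818043 counts, where 3 counts, the floor, are 0.164 to 0.702 CPM in the 3′F libraries. Intervals and floors cover counting error only. Alternatives were DESeq2 1.42.0, limma 3.58.1 (voom with quality weights), other size factors, no filter, only the groups compared, a replicate block and leaving out libraries.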

Additional observations from a re-analysis of the deposited data

Results flagged for a closer look

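Clmp and Arhgap22 were set apart because their response to LPS differed between 3′F and KO BMDMs by the interaction term of edgeR's quasi-likelihood test. The log2 response of Clmp was 2.26 larger in 3′F than in KO, with 3′F at 4.24 and KO at 1.98. The log2 response of Arhgap22 was 1.18 larger, with 3′F at -1.97 and KO at -3.16. In both genes all LPS libraries of each genotype lay on the same side of its resting libraries, so the genotypes differed in the size and not in the direction of the change.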

How the results depend on the processing

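Called genes in 3′F numbered 3546 in the fit reported. They numbered 2474 when only the groups compared were fitted, 3041 without the filter, 3593 with other size factors and 3904 with DESeq2, with 0 in the opposite direction. With limma-voom and quality weights, which gave resting replicate 3 a weight of 0.149, 5478 genes were called, 3020 higher and 2458 lower. Leaving out single libraries gave 2490 to 4001 calls, 1508 to 2189 higher and 982 to 1812 lower. The highest counts came without KO resting replicate 3, also chosen after seeing the data, where 3′F libraries alone gave at most 3594, 1903 and 1691, and the lowest count of lower genes came without LPS replicate 2 and the cause was not tested. Without both libraries of replicate 3, chosen after seeing the data, 2790 were called. The share of calls that were higher was 49.8% with DESeq2 and 60.6% without LPS replicate 2. Genes differing in response between 3′F and KO numbered 2, 4 without the filter, 27 with DESeq2, 118 with limma-voom and 0 when only the groups compared were fitted, and 1 to 3 with single libraries left out. The DESeq2 and limma-voom counts include KO resting replicate 3. Clmp lost its call when only the groups compared were fitted (adjusted p = 0.0848). Arhgap22 lost its call there (0.16), with a replicate block (0.147) and in 8 of 12 fits without a single library (0.0503 to 0.0897). Of 103 named genes, Irak1 alone changed sign, from 0.06 to -0.07 with limma-voom, -0.01 without LPS replicate 2, -0.06 without both libraries of replicate 3 and -0.13 without resting replicate 3, within a range of -0.13 to 0.15 over single libraries left out. Depth limits genes near 3 counts a library.

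Same-numbered resting and LPS libraries of 3′F correlated at 0.05, 0.33 and 0.14 in their deviations from the group means. Different-numbered ones lay at -0.23 to 0.09, with resting replicate 1 and LPS replicate 2 at 0.07. Same-numbered libraries were at 0.02, 0.28 and 0.28 in WT and at 0.34, 0 and 0.04 in KO. Different-numbered ones were at -0.27 to 0 in WT and at -0.25 to 0.14 in KO. These values do not settle whether the numbers mark pairs, and the main test did not pair them because no source used here says so. With a replicate block, 3323 genes were called in 3′F, 3106 of them shared, 17 of the 34 mitosis genes were lower against 7 without it, and the adjusted p of Clmp was 0.0496. The summed mitosis level was lower with LPS in each same-numbered pair.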

Other observations

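Without resting replicate 3, the log2 fold change of 108 genes was raised by more than 1, and 18 of these were called higher in that fit alone. They are described here after their values were seen. Adgrf1, an adhesion receptor gene, had 0, 0 and 7 counts at rest and 14, 17 and 10 with LPS, and its log2 fold change was 2.21 with all libraries (adjusted p = 0.102) and 6.87 without resting replicate 3 (adjusted p = 0.000252). In WT it was 4.53 (adjusted p = 0.0199). Camp, which encodes the antimicrobial peptide cathelicidin, had 1, 2 and 13 counts at rest and 29, 32 and 11 with LPS, with a log2 fold change of 1.71 and of 4.21 without that library, and 2.78 in WT. In both genes the counts of resting replicate 3, the shallowest library, exceeded those of the other resting libraries. All adjusted p-values are from edgeR's quasi-likelihood test.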
